A study of Mus musculus with 18 samples.

Results

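Described here are 9 mouse genes that mark type 1 conventional dendritic cells (cDC1), namely Xcr1, Clec9a, Cadm1, Cd8a, Ly75, Cd24a, Wdfy4, Gcsam and Btla. They were taken by Ensembl identifier from the 54232 genes of a read count table, and all 9 were among the 17074 genes with enough reads to be tested. The libraries were 18 RNA-seq libraries of sorted dendritic cells (DCs) from C57BL/6J mice whose genotype is labelled CD11a KO. Itgal encodes CD11a, an integrin chain that pairs with CD18 in LFA-1, which leukocytes use for adhesion. Each of 3 DC subsets, CD11b+, CD103+ and cells positive for both (labelled Double+, here DP), came from lamina propria of the small intestine (LP) and from intestinal lymph node (LN), with 3 libraries for each of the 6 groups. No wild-type library was analysed here, so the knockout is shared by every group and no difference below is one of genotype. The labels give no age, no treatment of these particular mice and no word on whether the replicates came from separate or pooled animals, and p-values therefore measure only the spread between libraries.

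cDC1 take up material from dying and infected cells and present its peptides on MHC class I to CD8+ T cells, which is called cross-presentation. In the intestine they belong to the CD103+ CD11b- DCs, whereas the CD11b+ subsets are mostly type 2 cells (cDC2). Both kinds leave the tissue in lymph and reach the draining node as mature, migratory DCs, where they lie beside resident DCs that came from blood. Among the genes here, Xcr1, Clec9a, Cadm1, Ly75, Cd24a and Btla encode surface proteins with a ligand or cargo, Cd8a encodes a co-receptor chain, and Wdfy4 and Gcsam encode proteins inside the cell.

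Levels are given as CPM (reads of a gene scaled to a common library size), computed from the deposited read counts with TMM-scaled library sizes, and as mean ± SD over 3 libraries. Differences are log2 fold changes with their standard error (SE) from edgeR's quasi-likelihood test on all 18 libraries. A gene was called higher or lower at an adjusted p (Benjamini-Hochberg over the 17074 genes) under 0.01 and a fold change over 2. Levels of different genes are compared only per kilobase of exon.

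The libraries held between 23574292 and 46901985 counted reads. The sorting markers followed the labels in LP, where Itgae (CD103) had 1238 to 1440 CPM in CD103+, 714 to 896 in DP and 92.1 to 293 in CD11b+ DCs, and Itgam (CD11b) was at most 1.27 CPM in CD103+ DCs and at least 55.3 in the others. In LN, Itgae was at most 49.1 CPM in any library, but it still followed the labels. It was 27 to 40.03 CPM in CD103+, 41.1 to 49.1 CPM in DP and 5.571 to 6.655 CPM in CD11b+ DCs, without overlap. Itgam in LN was 13.8 to 25.7 CPM in CD11b+, 4.85 to 5.76 CPM in DP and at most 0.886 CPM in CD103+ DCs. The DC genes Flt3 and Zbtb46 were read in every library, at 330 CPM or more and 161 CPM or more. Itgal itself was read in every library, at 6.45 CPM or more. T cell genes rose in LN, with 9 of 10 called in CD11b+ DCs, 10 of 10 in CD103+ DCs and 9 of 10 in DP DCs, beside 10.3%, 19.8% and 18.6% of all genes called higher. Their summed level was 7.94 to 45.2 CPM in the LP libraries and 281 to 683 CPM in those of LN. All LP libraries carried the Y-linked Ddx3y (50.04 CPM or more) and at most 0.286 CPM of Xist. All LN libraries carried Xist (15.4 CPM or more). In 2 of them, CD11b+ replicate 3 and DP replicate 3, Ddx3y was also read, at 58.0 and 52.2 CPM. The other LN libraries had at most 0.351 CPM of Ddx3y. Each difference between LN and LP is thus also one between animals and sexes, and tissue cannot be told apart from either. Without the 2 LN libraries that carried both transcripts, the number of members called stayed the same in each comparison of LN CD11b+ or DP cells. That fit cannot separate tissue from sex either.

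In LP, the cDC1 genes were carried by the CD103+ DCs. Against CD11b+ DCs, 8 of the 9 genes were higher in CD103+ cells and 0 were lower, beside 15.7% of all genes called in either direction (5.07% higher and 10.6% lower). Against DP DCs, 7 of 9 were higher and 0 lower, beside 13.6% of all genes called (5.52% higher and 8.10% lower). Higher than in both other subsets were 7 genes, Xcr1, Clec9a, Cadm1, Cd8a, Ly75, Gcsam and Btla, as were 3.60% of all genes. The median log2 fold change of the 9 genes was 4.61 against CD11b+ and 5.55 against DP cells, beside -0.04 and -0.01 over all genes. CD11b+ and DP cells of LP were far closer to each other, since only Ly75 was called between them, beside 4.81% of all genes (1.14% higher and 3.67% lower in DP cells), but that count rests on single libraries. It was 2 without CD11b+ replicate 1, without CD11b+ replicate 2, without DP replicate 1 or without DP replicate 2, and 3 without CD11b+ replicate 3. The genes added were Xcr1 (1.92-fold higher in DP cells with all libraries), Btla (1.97-fold lower), Cd24a (1.77-fold higher) and Clec9a (1.67-fold lower).

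In LN, little of this contrast was found. CD103+ cells still had higher Xcr1, Ly75, Cd8a, Clec9a and Cadm1 than CD11b+ cells, but Wdfy4 was lower, which makes 6 of 9 genes called beside 25.9% of all genes (10.2% higher and 15.6% lower). The median log2 fold change was 1.08, beside -0.13 over all genes. Against DP cells only Clec9a was called, beside 6.53% of all genes (1.84% higher and 4.69% lower), and the median was 0.50, beside -0.01 over all genes. Clec9a was thus the 1 gene of the 9 that was higher in CD103+ cells than in both other subsets in LN (1.55% of all genes) and in both tissues (0.551% of all genes). DP cells differed from CD11b+ cells in 3 genes, with Ly75 and Cadm1 higher and Wdfy4 lower, beside 16.7% of all genes (6.92% higher and 9.82% lower).

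**Figure D1:**
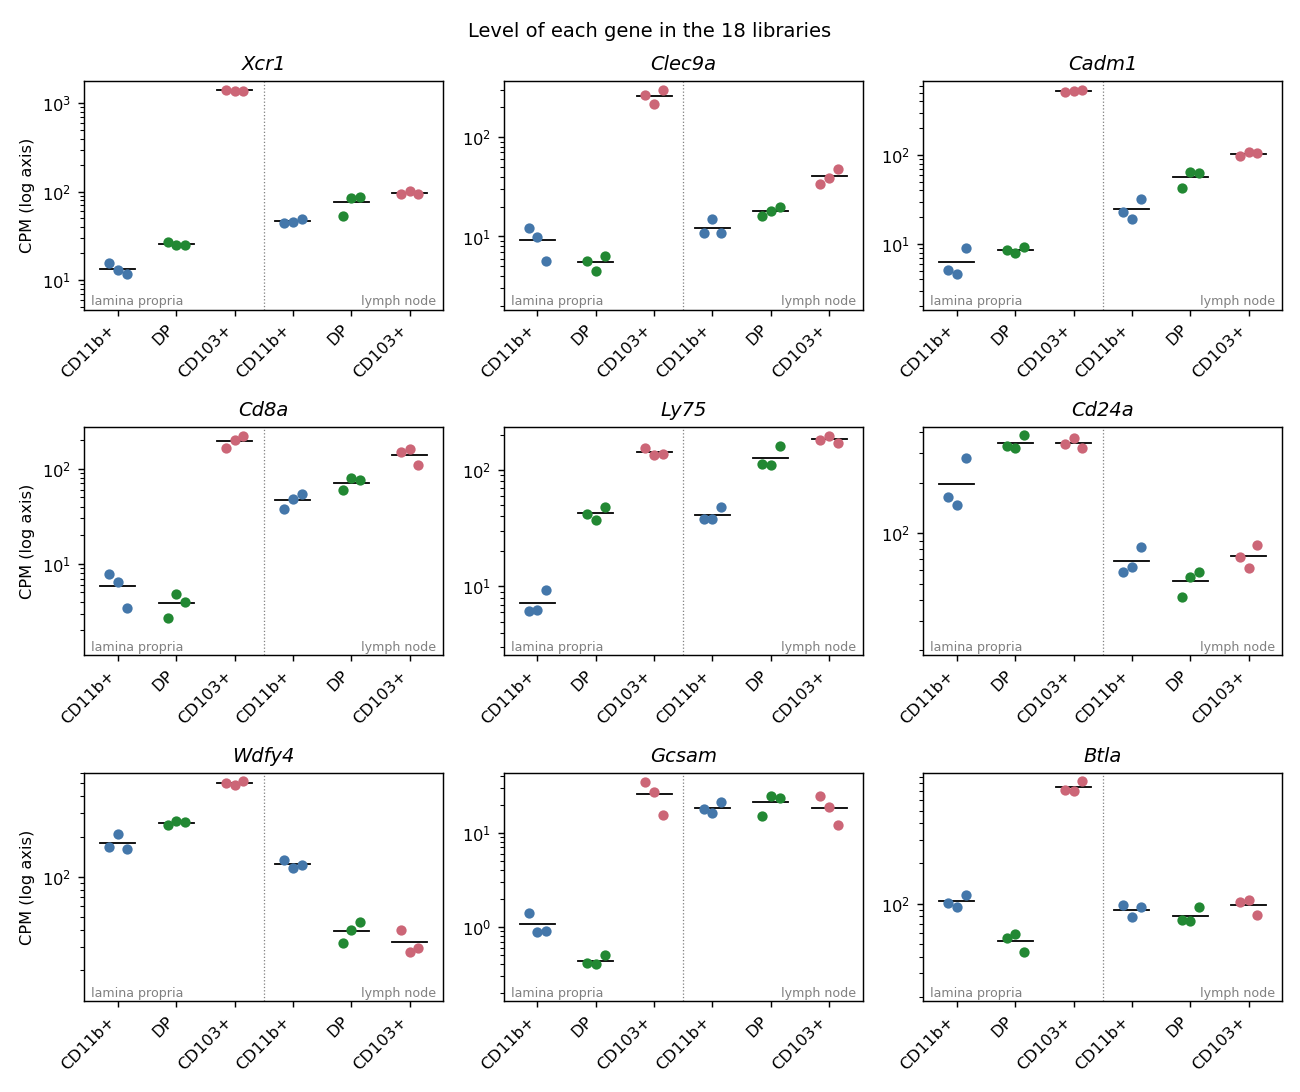
Level of each of the 9 genes in every library, in CPM on a log axis, by DC subset in lamina propria (left of the dotted line) and lymph node (right). Points are libraries, 3 for each group, and bars are group means. Xcr1 in LP CD103+ cells (mean 1400 CPM) stands far above every other group, while in LN its 3 group means lie between 46.2 and 97.6 CPM.

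The lower contrast in LN had 2 sides. In CD103+ DCs, 6 of 9 genes were lower in LN than in LP (Xcr1, Btla, Cd24a, Wdfy4, Clec9a and Cadm1) and 0 were higher, beside 35.0% of all genes called (19.8% higher and 15.1% lower). In CD11b+ DCs, 5 genes were higher in LN (Xcr1, Ly75, Cd8a, Cadm1 and Gcsam) and Cd24a was lower, beside 15.2% of all genes called (10.3% higher and 4.93% lower). In DP DCs, 6 genes were higher (the same 5 and Clec9a) and Cd24a and Wdfy4 were lower, beside 32.1% of all genes called (18.6% higher and 13.6% lower). The median log2 fold changes were -2.33, 1.78 and 1.59 in CD103+, CD11b+ and DP cells, beside 0.04, 0.03 and 0.07 over all genes. In sorted populations measured in bulk, fewer cells that carry a gene and less RNA of it per cell cannot be told apart.

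The tissue difference itself differed between subsets for 9 of 9 genes (F test, adjusted p under 0.01), as it did for 31.5% of all genes. It was lower in CD103+ than in CD11b+ cells for 8 genes, all but Cd24a, beside 27.2% of all genes (14.0% higher and 13.2% lower). It was lower in CD103+ than in DP cells for the same 8 genes, beside 13.1% of all genes (6.81% higher and 6.28% lower). These comparisons share the CD103+ libraries. Between DP and CD11b+ cells it differed for 5 genes, with Btla and Clec9a moving more upwards in DP cells and Ly75, Cd24a and Wdfy4 less so, beside 18.7% of all genes (9.56% higher and 9.13% lower). The libraries of LN CD103+ and DP cells also carried far more of the DC maturation genes, whose summed level was 1806 to 2535 CPM in LP CD103+ and 35770 to 37450 CPM in LN CD103+ cells, and 2373 to 3063 and 29380 to 32000 CPM in DP cells. In CD11b+ cells it was 1315 to 1501 CPM in LP and 5628 to 8606 CPM in LN. Its part in the differences above was not tested.

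**Figure D2:**
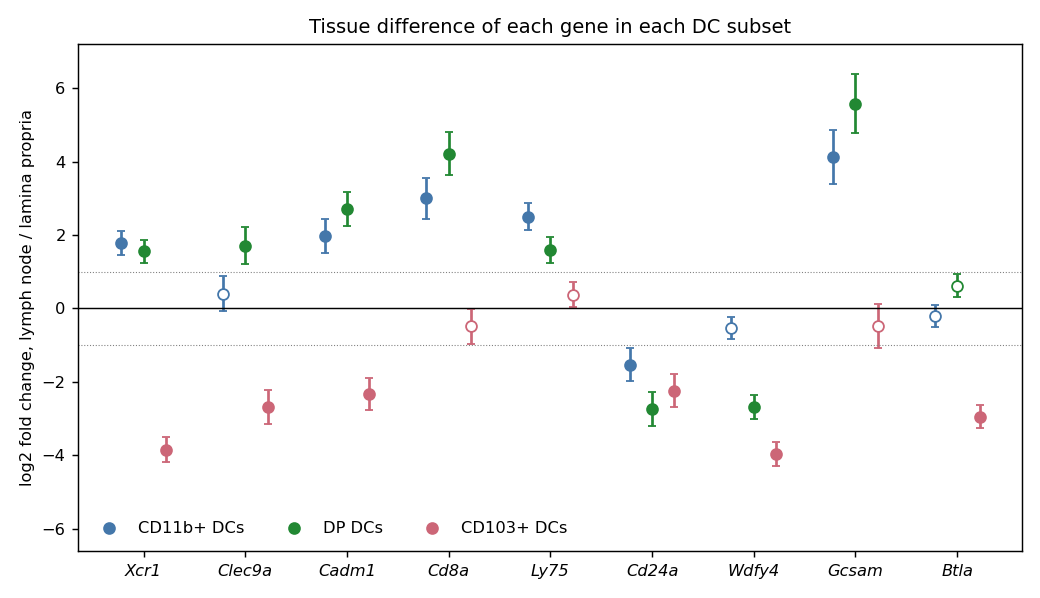
Log2 fold change between lymph node and lamina propria for each gene in each DC subset, with 95% confidence intervals (bars) from edgeR's quasi-likelihood fit. Filled points passed the test and open points did not, and dotted lines mark a fold change of 2. The CD103+ points lie below those of both other subsets for all genes but Cd24a, with Xcr1 at -3.84.

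The receptors come first. Xcr1 (ENSMUSG00000060509, chr9:123852315-123862029 of GRCm38, minus strand) encodes the receptor for the chemokine XCL1, which CD8+ T cells and NK cells make, and is widely used to define cDC1. Its level in LP CD103+ cells was 1410, 1399 and 1391 CPM in the 3 libraries, against 15.8, 12.8 and 11.8 CPM in CD11b+ and 27.3, 24.9 and 25.1 CPM in DP cells. In LN it was 95.2, 103 and 94.9 CPM in CD103+, 44.4, 45.4 and 49.0 CPM in CD11b+ and 53.2, 85.7 and 87.6 CPM in DP cells. CD103+ cells were thus above the other subsets in every library of both tissues, and their LN level lay far below that of LP with no overlap. The fall in CD103+ cells was -3.84 ± 0.16 (log2 fold change ± SE, adjusted p = 2.7e-12), which left 6.97% of the LP level. In CD11b+ and DP cells Xcr1 rose by 1.78 ± 0.15 (adjusted p = 1.4e-07) and 1.55 ± 0.15 (adjusted p = 1.1e-07). The excess of CD103+ over CD11b+ cells went from 104-fold in LP to 2.11-fold in LN, and the change of that contrast was -5.63 ± 0.22 (adjusted p = 2.9e-11). The LN difference between CD103+ and CD11b+ cells was called at 1.08 ± 0.14, but on total counts without TMM scaling it was 0.65 and under the fold limit. In LN, CD103+ and DP cells were not called different (0.37 ± 0.14, adjusted p = 0.067, 95% confidence interval 0.07 to 0.67).

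Clec9a (ENSMUSG00000046080, chr6:129408862-129424763, plus strand) encodes DNGR-1, the lectin by which cDC1 bind the actin filaments of dead cells. In LP CD103+ cells it had 262, 216 and 297 CPM, against 12.2, 9.77 and 5.69 CPM in CD11b+ and 5.63, 4.54 and 6.32 CPM in DP cells. In LN it had 33.97, 38.8 and 47.7 CPM in CD103+, 10.7, 15.0 and 10.8 CPM in CD11b+ and 16.2, 17.9 and 20.0 CPM in DP cells. In both tissues the CD103+ libraries lay above all the others, and in LN the DP libraries lay above those of CD11b+ cells. Clec9a fell by 2.69 ± 0.22 on the log2 scale in CD103+ cells (adjusted p = 1.8e-08) and rose by 1.71 ± 0.24 in DP cells (adjusted p = 8.7e-06). In CD11b+ cells the difference of 0.40 ± 0.23 did not pass (adjusted p = 0.18). CD103+ cells of LN kept a level 3.30-fold above CD11b+ and 2.23-fold above DP cells (adjusted p = 5.4e-06 and 0.00086). The exons of Clec9a overlap those of Clec1b on the same strand, and 185 bases are shared, so reads there could be lost or shifted. Clec1b had group means of 1.43 to 12.4 CPM.

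Cadm1 (ENSMUSG00000032076, chr9:47530173-47857637, plus strand) encodes an adhesion protein of the immunoglobulin family that binds CRTAM on activated CD8+ T cells and NK cells. Its 3 libraries of LP CD103+ cells had 504, 521 and 535 CPM, those of CD11b+ cells 5.10, 4.65 and 8.94 CPM and those of DP cells 8.61, 7.96 and 9.21 CPM. In LN the values were 98.4, 107 and 104 CPM in CD103+, 23.0, 19.1 and 31.8 CPM in CD11b+ and 42.7, 64.3 and 62.1 CPM in DP cells. The 3 LN groups did not overlap, with CD103+ cells highest and CD11b+ cells lowest, whereas in LP the DP and CD11b+ libraries overlapped. CD103+ cells kept 19.9% of their LP level (-2.33 ± 0.21, adjusted p = 4.1e-08), while Cadm1 rose 3.93-fold in CD11b+ and 6.56-fold in DP cells (adjusted p = 3.1e-06 and 1.8e-08). In LN, the 1.83-fold difference between CD103+ and DP cells was under the fold limit (adjusted p = 0.004). DP cells were 2.29-fold above CD11b+ cells, a call that was lost on total counts (log2 fold change 0.83).

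Ly75 (ENSMUSG00000026980, chr2:60292103-60383303, minus strand) encodes DEC-205, an endocytic receptor that is also raised when DCs of other kinds mature. It had the highest share of its LP level in CD103+ cells of LN, 130%, with 153, 134 and 136 CPM in LP and 181, 197 and 171 CPM in LN. The LN libraries lay above those of LP, but the difference of 0.38 ± 0.16 did not pass (adjusted p = 0.05, 95% confidence interval 0.04 to 0.71). In DP cells Ly75 went from 41.4, 37.1 and 48.2 CPM to 112, 110 and 159 CPM, and in CD11b+ cells from 6.10, 6.26 and 9.38 CPM to 38.1, 38.1 and 47.6 CPM. Both rises passed, at 1.59 ± 0.16 (adjusted p = 3.3e-07) and 2.502 ± 0.178 (adjusted p = 2.2e-08). Ly75 was also the only gene called between DP and CD11b+ cells in both tissues in the same direction, 5.81-fold higher in LP and 3.08-fold in LN. The overlapping gene Gm13571 on the opposite strand, which shares 181 bases, had group means of at most 2.98 CPM.

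The sequence before the start of Xcr1, Clec9a and Ly75 is shown because these genes moved in different ways in CD103+ cells: Xcr1 and Clec9a fell, with Clec9a alone staying above both other subsets, and Ly75 did not pass the test. RefSeq gave a start for 7 of the 9 genes, all but Cadm1 and Cd24a. The 250 bases before the start (GRCm38.p6) are given 5′ to 3′ on the strand of the gene, with each CG dinucleotide in capitals.
Xcr1, chr9:123862030-123862279, minus strand: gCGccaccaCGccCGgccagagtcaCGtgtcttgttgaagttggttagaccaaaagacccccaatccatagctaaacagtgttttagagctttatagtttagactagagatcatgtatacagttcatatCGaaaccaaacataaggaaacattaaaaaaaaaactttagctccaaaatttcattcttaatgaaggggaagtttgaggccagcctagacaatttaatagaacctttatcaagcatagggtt
Clec9a, chr6:129408612-129408861, plus strand: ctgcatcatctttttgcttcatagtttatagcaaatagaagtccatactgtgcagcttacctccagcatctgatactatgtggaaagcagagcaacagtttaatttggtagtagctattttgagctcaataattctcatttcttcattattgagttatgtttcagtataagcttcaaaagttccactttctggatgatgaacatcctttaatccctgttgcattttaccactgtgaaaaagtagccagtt
Ly75, chr2:60383274-60383523, minus strand: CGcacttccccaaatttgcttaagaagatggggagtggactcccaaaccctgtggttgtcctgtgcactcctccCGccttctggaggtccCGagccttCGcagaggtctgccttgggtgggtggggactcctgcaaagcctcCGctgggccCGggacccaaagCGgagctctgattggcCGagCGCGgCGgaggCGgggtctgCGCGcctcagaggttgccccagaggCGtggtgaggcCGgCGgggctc
The stretch of Ly75 holds 17 CG dinucleotides, that of Xcr1 5 and that of Clec9a 0. Over windows of 300 bases (250 before and 50 after the start) Ly75 had a GC content of 67.0%, above that of 85.6% of all 32817 windows, whereas Clec9a (37.0%) and Xcr1 (40%) lay above 5.79% and 10.1% of them. Cd8a had 46.7%, Btla 49.0%, Gcsam 53.0% and Wdfy4 54.3%, around the median of all windows, 52.7%. None of the 7 windows held the BATF/AP-1 letters TGANTCA or the pair of IRF half-sites GAAANNGAAA on either strand, which are found in 7.81% and 3.43% of all windows. That says only that these letters are absent from these windows.

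Cd8a (ENSMUSG00000053977, chr6:71373427-71379173, plus strand) encodes the alpha chain of CD8, which cDC1 carry as a pair of alpha chains and CD8+ T cells mostly as an alpha chain with a beta chain, encoded by Cd8b1. In LP it had 166, 200 and 221 CPM in CD103+ cells and at most 7.79 CPM in any library of the other subsets, a 33.5-fold excess over CD11b+ and a 50.7-fold excess over DP cells. In LN it had 151, 160 and 109 CPM in CD103+, 37.7, 48.2 and 54.1 CPM in CD11b+ and 59.0, 80.1 and 75.4 CPM in DP cells. Between the tissues Cd8a was not called in CD103+ cells (-0.49 ± 0.23, adjusted p = 0.074, 95% confidence interval -0.97 to -0.01) and rose 7.97-fold in CD11b+ and 18.5-fold in DP cells (adjusted p = 1.9e-07 and 1.3e-09). CD103+ cells of LN were above CD11b+ cells by 1.58 ± 0.23 on the log2 scale (adjusted p = 2.3e-05) and 1.96-fold above DP cells, under the fold limit. Without CD103+ replicate 3 of LN the latter difference was called, with a log2 fold change of 1.11.

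Reads of Cd8b1 were far more frequent beside those of Cd8a in LN. In LP CD103+ cells there were 0.00111 to 0.00365 reads of Cd8b1 for each read of Cd8a, so the Cd8a transcript there was nearly free of its partner. In LN CD103+ cells the ratio was 0.318 to 0.462, in LN CD11b+ cells 0.317 to 0.558 and in LN DP cells 0.307 to 0.525. These ratios of reads are not scaled for the length of the genes. Per kilobase of exon, the means of Cd8b1 and Cd8a were close in LN. They were 39.1 and 38.5 CPM per kb in CD103+, 13.4 and 12.8 in CD11b+ and 19.0 and 19.7 in DP cells. Cd8b1 rose from 0.245 to 0.731 CPM in LP to 34.7 to 73.8 CPM in LN CD103+ cells, a log2 fold change of 6.91 ± 0.48 (adjusted p = 2.0e-09). The T cell gene Cd3e rose beside it, from 0.979 to 1.13 CPM up to 39.0 to 70.6 CPM (5.80 ± 0.49, adjusted p = 2.3e-08). CD103+ replicate 3 of LN had the least Cd8a, the least Cd8b1 and the lowest sum of T cell genes of its group, 301 CPM. The part of T cell RNA in the Cd8a of the LN libraries was not tested.

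**Figure D3:**
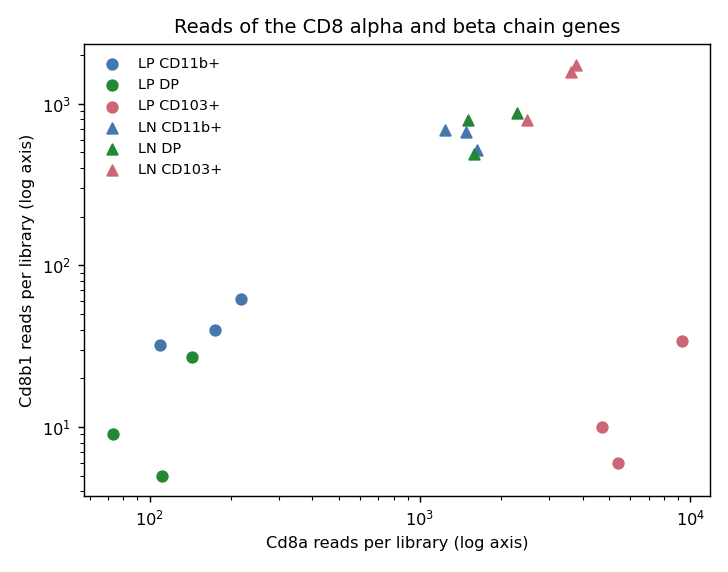
Reads of Cd8b1 (CD8 beta chain) against reads of Cd8a (CD8 alpha chain) in each of the 18 libraries, both on log axes and not scaled for depth. Circles are lamina propria and triangles lymph node libraries, coloured by subset. The LP CD103+ libraries hold 4703 to 9307 reads of Cd8a with 6 to 34 of Cd8b1, while all LN libraries hold 488 or more reads of Cd8b1.

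Cd24a (ENSMUSG00000047139, chr10:43578284-43584265, plus strand) encodes a small glycosylated surface protein used to gate cDC1, and binds Siglec-G. It is also carried by B cells, epithelium and red cell precursors. In LP it was the only member not called higher in CD103+ cells against either other subset. There, CD103+ cells (346 ± 24.5 CPM) and DP cells (348 ± 33.5 CPM) were not called different (log2 fold change -0.01, 95% confidence interval -0.44 to 0.42). CD11b+ cells had 164, 147 and 280 CPM, so replicate 3 lay far above the other libraries of the group, and other genes stood apart in the same library. It had 293 CPM of Itgae, against 92.1 and 121 in the other libraries, a sum of epithelial genes of 592 CPM, against 233 and 273, and a sum of macrophage genes of 1497 CPM, against 663 and 877. With that library, CD103+ cells were 1.76-fold above CD11b+ cells and under the fold limit (adjusted p = 0.0047). Without it, Cd24a was called higher in CD103+ (log2 fold change 1.15) and in DP cells (1.16). The epithelial genes had a summed level of 579 to 856 CPM in LP DP, 67.0 to 117 CPM in LP CD103+ and at most 70.3 CPM in LN cells. In LP DP cells most of that sum was Epcam (452.5 ± 62.2 CPM) and Cdh1 (194 ± 63.3 CPM). Against LP CD11b+ cells, 2 of the 10 epithelial genes were higher and 0 lower in DP cells, with a median log2 fold change of -1.62. Of all genes, 1.14% were higher and 3.67% lower there. The part of epithelial and macrophage RNA in Cd24a was not tested.

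Cd24a was lower in LN in each subset, and no LN library overlapped with one of LP. The LN levels were 68.0 ± 13.2 CPM in CD11b+, 73.2 ± 11.7 CPM in CD103+ and 51.8 ± 8.82 CPM in DP cells. The fall was 1.53 ± 0.21, 2.24 ± 0.21 and 2.75 ± 0.22 on the log2 scale (log2 fold changes of -1.53, -2.24 and -2.75, adjusted p = 2.4e-05, 1.0e-07 and 1.4e-08). It was deeper in DP than in CD11b+ cells by 1.22 ± 0.29 (difference of -1.22, adjusted p = 0.0046), while the F test over the subsets (adjusted p = 0.0085) was lost without any of 12 of the 18 libraries in turn and without the 2 libraries that carried both sex-linked transcripts (adjusted p = 0.028).

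Wdfy4 (ENSMUSG00000051506, chr14:32959547-33185508, minus strand) encodes a BEACH-domain protein that cDC1 need to cross-present cell-bound antigen. In LP it was read in all subsets, at 504, 489 and 519 CPM in CD103+, 242, 262 and 256 CPM in DP and 168, 210 and 161 CPM in CD11b+ cells. In LN the CD11b+ libraries were instead the highest, with 135, 117 and 123 CPM. DP cells had 32.0, 40.3 and 46.2 CPM and CD103+ cells 40.2, 27.2 and 29.4 CPM there. These 2 groups overlapped and were not called different (-0.29 ± 0.15, adjusted p = 0.17). The CD103+ libraries were thus the highest in LP and, with those of DP cells, the lowest in LN. Wdfy4 fell by 3.96 ± 0.16 on the log2 scale in CD103+ cells (to 6.41% of the LP level, adjusted p = 2.4e-12) and by 2.68 ± 0.15 in DP cells (adjusted p = 1.9e-10). In CD11b+ cells the difference of -0.53 ± 0.14 was under the fold limit (adjusted p = 0.0073). CD103+ cells were 2.80-fold above CD11b+ cells in LP and 3.87-fold below them in LN (adjusted p = 3.4e-07 and 1.0e-08). In LP the 1.99-fold excess over DP cells was just under the fold limit (log2 fold change 0.99), and it was called without CD103+ replicate 2 or DP replicate 2 of LP (1.02 and 1.01). With a replicate block in the LP libraries alone this excess was 1.00 and called, which gives 8 members in place of 7.

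Btla (ENSMUSG00000052013, chr16:45224315-45257670, plus strand) encodes the B and T lymphocyte attenuator, an inhibitory receptor whose ligand is HVEM, and is also carried by B cells. LP CD103+ cells had 708, 696 and 830 CPM, CD11b+ cells 101, 93.9 and 117 CPM and DP cells 55.6, 59.6 and 42.9 CPM. In LN all libraries lay between 74.2 and 106 CPM and the 3 groups overlapped. CD103+ cells thus fell to 13.0% of their LP level (-2.94 ± 0.15, adjusted p = 4.6e-11), whereas CD11b+ cells (-0.20 ± 0.14, adjusted p = 0.28) and DP cells (0.63 ± 0.14, 1.54-fold, adjusted p = 0.0012) were not called. In LN no pair of subsets was called, and the interval for CD103+ against CD11b+ cells was -0.20 to 0.40. In LP, DP cells had 1.97-fold less Btla than CD11b+ cells, just under the fold limit, and it was called without CD11b+ replicate 2, DP replicate 1 or DP replicate 2 (log2 fold change of -1.04, -1.02 and -1.07). B cell genes had a summed level of 48.1 to 56.6 CPM in LP and 165 to 235 CPM in LN CD11b+ cells. In DP cells it was 17.8 to 21.45 and 56.45 to 68.7 CPM, and in CD103+ cells 46.5 to 74.2 and 41.5 to 48.7 CPM. Fcrla alone had 37.2 ± 11.2 CPM in LP CD103+ cells. Of 7 tested, 6 were higher in LN in CD11b+, 5 in DP and 4 in CD103+ cells, where Fcrla was lower. Of all genes, 10.3%, 18.6% and 19.8% were higher, and 15.1% were lower in CD103+ cells. The part of B cell RNA in Btla was not tested.

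Gcsam (ENSMUSG00000022659, chr16:45610380-45622867, plus strand) lies 352709 bases from Btla on the same strand and encodes a signalling adaptor of germinal centre B cells that also marks cDC1. In LP it had the lowest level per kilobase of the 9 genes in each subset. LP CD103+ cells had 35.0, 27.4 and 15.5 CPM, while LP CD11b+ cells had 24 to 39 reads (1.07 ± 0.29 CPM) and LP DP cells 11 to 14 reads (0.439 ± 0.053 CPM). In LN the levels were 18.6 ± 2.68 CPM in CD11b+, 18.6 ± 6.26 CPM in CD103+ and 21.2 ± 5.13 CPM in DP cells, with overlap between all 3 groups. Gcsam thus rose 17.4-fold in CD11b+ and 47.7-fold in DP cells (4.12 ± 0.34 and 5.58 ± 0.38, adjusted p = 1.1e-07 and 2.1e-09) and was not called in CD103+ cells (-0.48 ± 0.29, adjusted p = 0.15, 95% confidence interval -1.09 to 0.12). Among LN subsets no difference passed, and the interval for CD103+ against CD11b+ cells was -0.60 to 0.60. Germinal centre B cell genes had summed levels of 12.3 to 29.8 CPM over all libraries of both tissues, with 1 of the 4 genes at 0 in LP CD11b+ cells and 2 in LP DP cells.

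**Figure D4:**
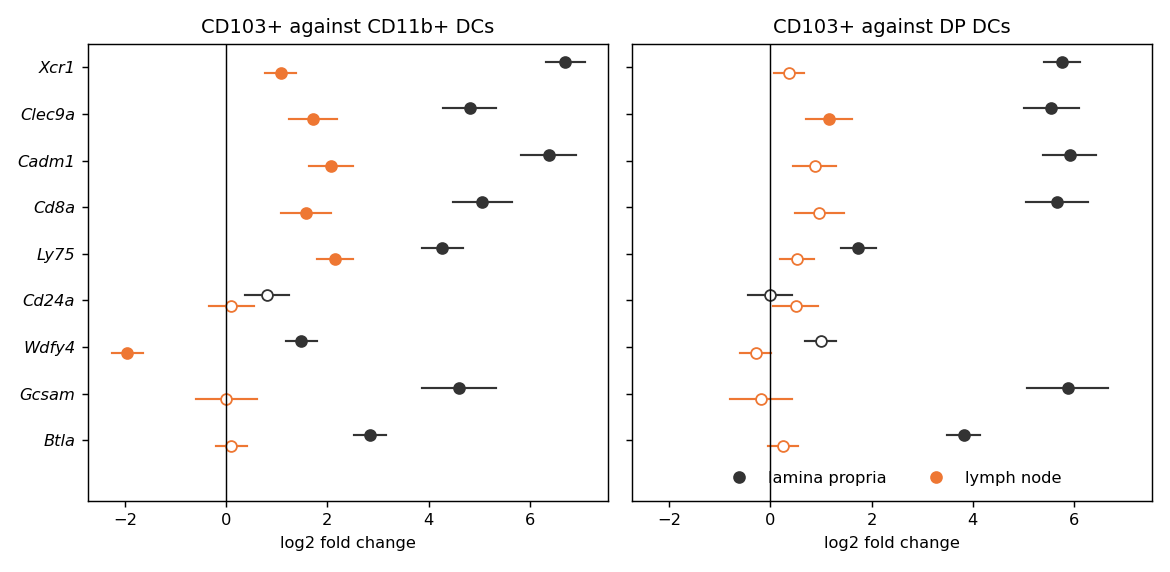
Log2 fold change of CD103+ DCs against CD11b+ DCs (left) and against DP DCs (right) for each gene, in lamina propria (black) and lymph node (orange), with 95% confidence intervals from edgeR's quasi-likelihood fit. Filled points passed the test. The lymph node points lie nearer to 0 than those of lamina propria for most genes, and Wdfy4 against CD11b+ DCs turns from 1.49 to -1.95.

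Per kilobase of exon, LP CD103+ cells carried most Xcr1 (314 ± 2.12 CPM per kb), then Btla (219 ± 21.9) and Cd24a (134 ± 9.50), then Clec9a (78.5 ± 12.4). Cd8a (53.9 ± 7.60), Cadm1 (49.8 ± 1.47) and Wdfy4 (47.8 ± 1.41) lay within their spread of each other, above Ly75 (20.4 ± 1.55) and Gcsam (7.59 ± 2.87). In LN CD103+ cells the order was another one. Cd8a led (38.5 ± 7.41 CPM per kb), followed by Btla (28.5 ± 3.88), Cd24a (28.4 ± 4.55) and Ly75 (26.5 ± 1.87), which did not differ beyond their spread. Xcr1 came next (21.9 ± 0.987), then Clec9a (12.2 ± 2.12) and Cadm1 (9.89 ± 0.435), and Gcsam (5.43 ± 1.83) and Wdfy4 (3.06 ± 0.662) were lowest. The place of Cd8a holds for the libraries, in which Cd8b1 had 39.1 ± 13.9 CPM per kb. The part of T cell RNA in that level of Cd8a was not tested.

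Over the 18 libraries, the log2 CPM of Xcr1, Clec9a and Cadm1 went together, with Pearson r of 0.933 to 0.958 between them (a description over libraries, many of which share a group). Wdfy4 and Xcr1 had an r of 0.964 over the 9 LP libraries and -0.821 over the 9 LN libraries, and Cd24a was closest to Wdfy4 (0.857 over all 18). Among 9901 other genes of sufficient level, the nearest to Xcr1 were Snx22 (0.982), Plpp1 (0.976) and Fzd1 (0.975). Plpp1 was also near to Clec9a (0.971) and to Cadm1 (0.975), for which Gpr141b (0.982) came first and the transcription factor gene Irf8 (0.971) was also near. Nearest to Cd8a was Erc1 (0.977), to Ly75 Ttc39a (0.967), to Cd24a Apobr (0.979), to Wdfy4 Znrd1 (0.991), to Gcsam Sema4f (0.972) and to Btla Synpo (0.979).

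Of 13 further cDC1 genes, 11 were higher in CD103+ than in CD11b+ cells of LP and 1 was lower (Nfil3), beside 5.07% of all genes higher and 10.6% lower, with a median log2 fold change of 4.47 (-0.04 over all genes). Between LN and LP, 9 of the 13 fell and 2 (Id2 and Nfil3) rose in CD103+ cells, beside 15.1% of all genes lower and 19.8% higher. In CD11b+ cells 5 rose and 1 fell (10.3% and 4.93% of all genes), and in DP cells 7 rose and 0 fell (18.6% and 13.6% of all genes). The medians were -3.10, 0.86 and 1.10 in CD103+, CD11b+ and DP cells, beside 0.04, 0.03 and 0.07 over all genes. Irf8, which cDC1 need for their identity, fell from 4650 ± 281 to 1615 ± 54 CPM in CD103+ cells (-1.53 ± 0.09, adjusted p = 2.6e-10), and rose from 151 ± 6.29 to 405 ± 21.3 CPM in CD11b+ and from 83.6 ± 7.95 to 689 ± 66.7 CPM in DP cells. The deepest fall was that of Tlr3, the sensor of double-stranded RNA, from 959 ± 24.8 to 8.65 ± 1.90 CPM in CD103+ cells (-6.79 ± 0.17, adjusted p = 2.7e-14), and the largest rise that of Nfil3 (2.84 ± 0.29). Batf3, a factor needed to keep Irf8 on, had 148 ± 7.07 CPM in LP CD103+ cells and 156 ± 22.3 CPM in LN CD103+ cells (0.08 ± 0.10, adjusted p = 0.52), and its group means over both tissues lay between 107 and 183 CPM.

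Of 15 genes of the cross-presentation machinery, 5 rose and 1 fell in CD103+ cells between LP and LN (median log2 fold change 0.67). Of all genes, a similar share of 35.0% was called in either direction, with 19.8% higher and 15.1% lower. In DP cells 7 rose and 1 fell (median 0.57), beside 18.6% of all genes higher and 13.6% lower, and in CD11b+ cells 0 rose and 1 fell (Sec61b, -1.14 ± 0.14, median -0.02), beside 10.3% and 4.93%. The medians over all genes were 0.04, 0.07 and 0.03. The largest rise in CD103+ cells was that of B2m, the light chain of MHC class I, at 2.80 ± 0.12 (adjusted p = 6.6e-12). Tap1, a subunit of the peptide transporter, went from 918 ± 36.9 to 1870 ± 58.2 CPM (1.03 ± 0.09, adjusted p = 4.2e-08). The gene that fell was Rab43, a GTPase that takes part in cross-presentation by cDC1, from 66.0 ± 13.4 to 19.9 ± 3.02 CPM (-1.73 ± 0.17, adjusted p = 1.6e-07). Sec22b had 94.9 ± 5.15 and 111 ± 7.75 CPM in these cells and was not called (0.23 ± 0.07, adjusted p = 0.013). Cybb, the catalytic subunit of the phagocyte oxidase, was low in CD103+ cells of both tissues (8.46 ± 1.59 and 14.6 ± 2.33 CPM) and fell in DP cells from 507 ± 34.1 to 101 ± 10.6 CPM (-2.33 ± 0.19, adjusted p = 1.9e-08).

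Of 9 genes for partners and signalling of these receptors, 4 rose in LN in CD11b+ cells, 4 in CD103+ cells and 4 in DP cells, where 2 also fell, beside 10.3%, 19.8% and 18.6% of all genes called higher in these comparisons and 13.6% lower in DP cells. The 4 were in each case Xcl1, Crtam, Cd160 and Tnfsf14, which T cells and NK cells carry. Xcl1, the ligand of XCR1, went from 1.46 ± 0.40 to 15.9 ± 4.15 CPM in CD103+ cells (3.42 ± 0.56, adjusted p = 5.1e-05), and Crtam, the partner of CADM1, from 0.611 ± 0.636 to 17.7 ± 10.9 CPM (4.77 ± 0.86, adjusted p = 0.00013). NK cell genes had summed levels of 1.90 to 6.28 CPM in LP and 40.7 to 238 CPM in LN libraries, and their part and that of T cells in these rises was not tested. Tnfrsf14, which encodes the BTLA ligand HVEM, was not called between the tissues in any subset, with group means of 6.57 to 13.2 CPM. Siglecg, which encodes a receptor for CD24, was low in CD103+ cells (13.0 to 17.3 CPM in LP and 7.59 to 12.4 CPM in LN) and fell in DP cells from 191 ± 17.6 to 79.9 ± 12.7 CPM. Syk, the kinase that CLEC9A signals through, was lower in CD103+ than in CD11b+ cells in both tissues (-1.81 ± 0.13 and -2.13 ± 0.13, adjusted p = 8.4e-09 and 6.8e-10).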

How the data were processed

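RNA-seq libraries of sorted DCs had been made with the SMART-seq v4 kit. The authors deposited raw counts of reads per gene, listed by Ensembl identifier, without normalization. The submitters' processing notes name FastQC 0.11.7, STAR 2.6 and the build GRCm38. For its other DC libraries the study kept unique alignments and ignored strand; the sources used here do not say how these 18 libraries were counted. Symbols and positions came from GENCODE (GRCm38), with 54079 of 54232 identifiers matched, and sequences from RefSeq (GRCm38.p6).

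Counts were tested with edgeR 4.0.16 (R 4.3.3): TMM, filterByExpr, and 1 quasi-likelihood fit over all 18 libraries with 6 group means, Benjamini-Hochberg adjusted over 17074 genes. The thresholds for calls (adjusted p under 0.01, fold change over 2) are those of the study. Tests of a difference between tissue effects had no fold limit. The script was tested on simulated data. Replicates of a group differed by more than sampling noise. The members, gene lists, marker lists and thresholds were chosen with earlier results of these data known, and the list of further cDC1 genes and cross-presentation machinery was described in 2 parts. Genes named beside the members mostly share a partner, cell type or pathway step with a member. Others had the largest rise or fall of a list in some comparison, though not every such gene is named. Ccr7 was named outside this rule. Genes nearest to a member had at least 10 CPM in some group.

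Replicate numbers come from the labels. Deviations of same-numbered libraries from their group means correlated at 0.152 to 0.208 between LP CD11b+ and CD103+ libraries. They correlated at 0.125 to 0.189 between LP CD103+ and DP and at 0.075 to 0.25 between LP CD11b+ and DP libraries. Libraries of different numbers were not compared, so these values cannot show whether the numbers pair libraries. Alternatives were DESeq2 1.42.0 (size factors and test), total counts, no filter, at least 100 counts in at least 3 libraries, an adjusted p under 0.05, the compared libraries alone, a replicate block and each library left out. Added after seeing the data were blocks within 1 tissue and a fit without the 2 libraries with both sex-linked transcripts.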

Additional observations from a re-analysis of the deposited data

Results flagged for a closer look

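The difference between lymph node and lamina propria itself differed between the DC subsets for each of the 9 genes, which is what flagged them (edgeR's quasi-likelihood F test over 3 subsets with 3 libraries in each tissue, adjusted over all genes tested). The adjusted p was 2.6e-11 for Xcr1, 3.9e-09 for Btla, 4.2e-09 for Cadm1, 7.8e-09 for Wdfy4, 5.2e-08 for Clec9a, 6.0e-08 for Cd8a, 7.0e-08 for Gcsam, 6.5e-06 for Ly75 and 0.0085 for Cd24a. Of all genes tested, 31.5% passed the same test. Xcr1, Cadm1 and Clec9a fell in CD103+ cells and rose in DP cells, Wdfy4 fell in both with a deeper fall in CD103+ cells, and Cd8a, Ly75 and Gcsam rose in both CD11b+ and DP cells and were not called in CD103+ cells.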

How the results depend on the processing

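Of the counts of called members and genes, 316 values under the alternatives stayed within 1.5 times the reported count and 10 did not. For DP against CD11b+ cells in LP, 2 members were called on total counts and 2 at an adjusted p under 0.05, against 1, and between 1 and 3 with 1 library left out. In that comparison 506 genes were called with only the libraries compared and 1289 at an adjusted p under 0.05, against 821. For CD103+ against DP cells in LN, between 1 and 2 members were called with 1 library left out. Total counts moved the median log2 fold change of all genes in LN to -0.56 for CD103+ against CD11b+ cells (from -0.13) and to -0.44 for DP against CD11b+ cells (from -0.08). On that scale Btla (-0.324), Cd24a (-0.323) and Gcsam (-0.423) in CD103+ against CD11b+ cells of LN and Gcsam in DP against CD11b+ cells of LN (-0.182) changed sign. Signs also changed for 2 differences near 0. Cd24a in CD103+ against DP cells of LP was 0.00715 with no filter, 0.0108 with the replicate block and 0.0205 with the block in LP alone. Gcsam in CD103+ against CD11b+ cells of LN was -0.0392 with no filter, -0.0112 with the stricter filter and -0.0444 with the replicate block. With 1 library left out, the log2 fold changes that changed sign ranged from -0.0597 to 0.0726 (Cd24a, CD103+ against DP in LP), and in LN from -0.0338 to 0.237 (Cd24a, CD103+ against CD11b+), -0.277 to 0.215 (Gcsam, CD103+ against CD11b+), -0.0195 to 0.197 (Btla, CD103+ against CD11b+) and -0.451 to 0.0416 (Gcsam, CD103+ against DP). None of these differences had passed the test, and the cause was not tested. Deviations of same-numbered libraries correlated at 0.015 to 0.129 within LN and at -0.101 to 0.073 across tissues. The replicate block over all libraries changed no member count. The adjusted p of Cd24a in the F test reached 0.026 with 1 library left out. With 3 libraries a group, low genes such as Gcsam in LP DP cells (11 to 14 reads) have wide intervals.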

Other observations

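The subsets also differed in the genes of cDC2. In LP, all 7 cDC2 genes were lower in CD103+ than in CD11b+ cells (median log2 fold change -6.10) and all 7 lower than in DP cells (-6.26), while DP and CD11b+ cells differed in 1 of 7, Clec10a. Of all genes, 10.6%, 8.10% and 3.67% were called lower in these comparisons, with medians of -0.04, -0.01 and -0.00. Their summed level was 43.9 to 85.2 CPM in LP CD103+, 2720 to 3951 CPM in LP CD11b+ and 3252 to 3874 CPM in LP DP cells. In LN, the DP cells had 204 to 251 CPM, the CD11b+ cells 817 to 1271 CPM and the CD103+ cells 44.0 to 53.1 CPM. Between LN and LP, 6 of the 7 fell in DP cells (median -4.32), 4 fell in CD11b+ cells (-1.56), and in CD103+ cells 3 fell and 2 rose (-1.01), beside 13.6%, 4.93% and 15.1% of all genes lower in DP, CD11b+ and CD103+ cells and 19.8% higher in CD103+ cells. DP cells of LN thus had less of the cDC2 genes than those of LP while 6 of the 9 cDC1 genes were higher there.

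DC maturation genes rose in each subset, with 13 of 16 called higher and 1 lower in CD11b+ (median 2.25), CD103+ (4.24) and DP cells (4.07). Of all genes, 10.3%, 19.8% and 18.6% were called higher and 4.93%, 15.1% and 13.6% lower, with medians of 0.03, 0.04 and 0.07. Ccr7, the receptor that brings DCs to lymph node, went from 147 ± 27.2 to 11340 ± 1046 CPM in CD103+ cells, from 157 ± 33.9 to 9025 ± 1011 CPM in DP cells and from 43.4 ± 19.4 to 1572 ± 475 CPM in CD11b+ cells. The largest rise in CD103+ cells was that of Fscn1, the actin-bundling protein of mature DCs, from 45.1 ± 14.7 to 7643 ± 766 CPM.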
